A study of Bos taurus with 30 samples.

Results

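Transcripts of 10 Wnt pathway genes were followed in the day 15 bovine embryo. They were LEF1, AXIN2, NKD1 and LGR5, whose transcripts are widely used as readouts of canonical Wnt signaling, the secreted antagonists DKK1, SFRP1, SFRP4, FRZB and NOTUM, and the secreted agonist RSPO3. The genes were chosen by name, and all 10 were found by Entrez ID among the 35092 genes of the count table.

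The 30 libraries came from the embryonic disc (ED), which holds the epiblast and its derivatives, and the extra-embryonic membranes (EEM), which are mainly trophoblast lined by hypoblast. The ED was sequenced in 7 embryos produced in vitro (IVP) and 9 produced in vivo (IVV). EEM libraries came from 6 IVP and 8 IVV embryos. IVP embryos came from slaughterhouse oocytes, were cultured without serum to day 7 and then grew in recipient cows, whereas IVV embryos came from superovulated and inseminated cows, and all were flushed at day 15. The procedure therefore cannot be told apart from the cow that carried the embryo or from its genetic mother. Several embryos of a group shared a cow, and the labels give neither the sex nor the morphology of an embryo. In the study IVP embryos were shorter than IVV embryos, and embryos without a disc, more frequent among IVP embryos, were discarded. Embryo size and this selection cannot be told apart from the procedure either.

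In canonical Wnt signaling, a Wnt ligand binds a Frizzled receptor and an LRP5 or LRP6 coreceptor, β-catenin is spared from degradation, and TCF and LEF factors in the nucleus switch on their targets. Several of these targets feed back on the pathway. In the mammalian embryo the pathway is needed to form the primitive streak and mesoderm, and secreted antagonists from the anterior side and the hypoblast confine where it acts.

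Levels are given in CPM, each count relative to the size of its library after TMM scaling over all 30 libraries, whose totals ran from 48713218 to 63037371 counts. CPM are not corrected for transcript length, so levels are compared between samples and not between genes. The labelled tissues were checked against markers. POU5F1, an epiblast factor, had a median of 29.3 CPM in IVP and 68.7 CPM in IVV discs, against 1.59 and 1.22 CPM in the EEM, while TBXT, the defining factor of the streak, was at 0 counts in every EEM library. In IVV embryos 4 of the 5 streak genes were higher in the ED than in the EEM (edgeR quasi-likelihood test) and MESP1 did not pass, and in IVP embryos TBXT and EOMES passed as higher. There MESP1 averaged 2.38 ± 1.59 CPM (SD, n = 6) in IVP membranes beside 1.36 ± 0.90 CPM in IVP discs (SD, n = 7), and MIXL1 1.72 ± 0.37 and 1.90 ± 0.70 CPM. SOX2 and UTF1 of the epiblast list were listed at 0 in every library; these zeros were not read as absence of the transcripts, since how the annotation used for counting covers the 2 genes was not tested. The disc pieces held trophoblast transcripts, since 12 trophoblast markers summed to 8906 to 56841 CPM in IVP discs and to 15529 to 25594 CPM in IVV discs, against 21129 to 62253 and 23556 to 30853 CPM in the EEM. In bulk tissue, fewer cells of a type and less RNA per cell cannot be told apart.

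The question of the first comparison was whether in vitro production changed transcripts of the ED. Of the 10 genes, 5 were lower in IVP than in IVV discs, 1 was higher and 4 did not pass the threshold (edgeR quasi-likelihood test, adjusted p under 0.05), where 6.34% of 15733 genes tested passed 4.95% as lower and 1.4% as higher. The readouts LEF1 and NKD1 and the antagonists SFRP1, SFRP4 and NOTUM were lower, and RSPO3 was higher. The median log2 fold change of the 10 genes was -1.21, beside -0.0079 over all genes tested.

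**Figure D1:**
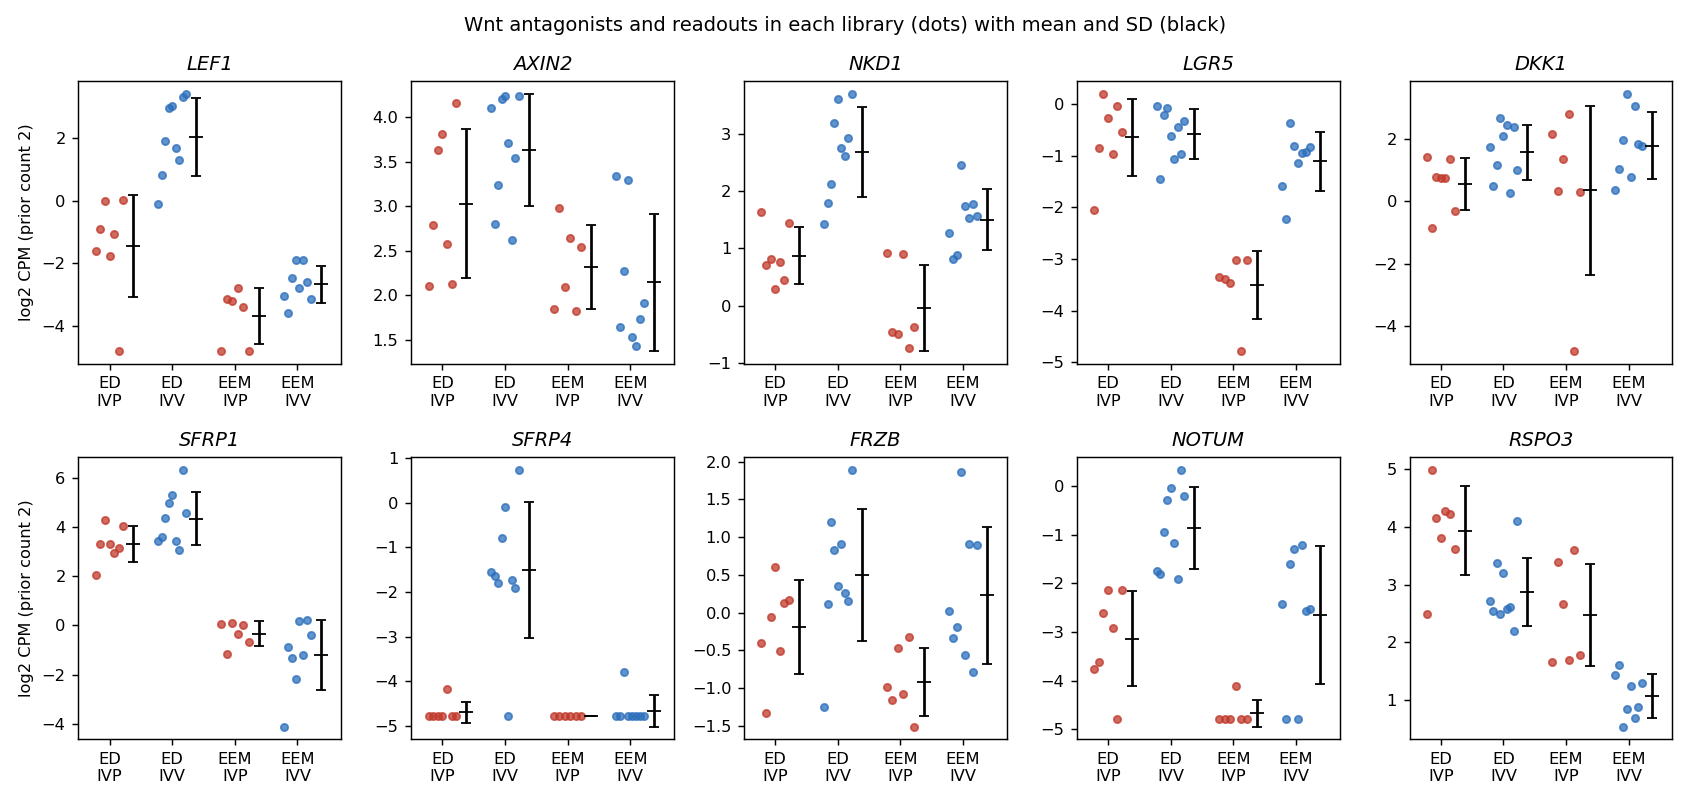
Level of each gene on the log2 CPM scale (y axis, prior count 2) in every library of the 4 groups (x axis), with IVP in red and IVV in blue, and the mean with its SD in black. The IVP discs of LEF1, NKD1, SFRP4 and NOTUM sit low beside the IVV discs, those of RSPO3 sit high, and LGR5 is low in the IVP membranes.

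LEF1 encodes a DNA-binding partner of β-catenin and is itself a Wnt target. Its lowest, median and highest levels were 0, 0.439 and 0.985 CPM in IVP discs and 0.888, 3.72 and 10.5 CPM in IVV discs. In 5 of 7 IVP discs it was below every IVV disc, and the groups overlapped through the IVV disc of embryo VE19 alone. The fitted log2 fold change was -3.57 (SE 0.60, edgeR quasi-likelihood test, adjusted p = 0.000716).

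NKD1 binds Dishevelled, dampens the pathway from inside the cell and is induced by it. The IVP discs ranged from 1.19 to 3.07 CPM with a median of 1.66, and the IVV discs from 2.64 to 13 CPM with a median of 6.75. Again 5 of 7 IVP discs were below all IVV discs, and VE19 was the lowest IVV disc. Its log2 fold change was -1.99 (SE 0.34, edgeR quasi-likelihood test, adjusted p = 0.000858).

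AXIN2, a scaffold of the β-catenin destruction complex and a feedback target in most tissues, did not pass the threshold. It ranged from 4.26 to 17.9 CPM in IVP discs (median 6.86) and from 6.12 to 18.9 CPM in IVV discs (median 13), with 3 of 7 IVP discs below all IVV discs. The log2 fold change was -0.65 (SE 0.35, edgeR quasi-likelihood test, adjusted p = 0.341). LGR5, a receptor for R-spondins, had nearly the same mean in both groups, 0.674 ± 0.308 CPM over the IVP discs (SD, n = 7) and 0.669 ± 0.217 CPM over the IVV discs (SD, n = 9). Its log2 fold change was -0.0034 (SE 0.38), and the sign turned under other settings. The 4 readouts therefore split, with LEF1 and NKD1 lower and AXIN2 and LGR5 not past the threshold; whether they differed from each other was not tested.

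Among the antagonists, NOTUM had no overlap between the groups. It encodes an extracellular enzyme that removes the palmitoleate group from Wnt ligands. Its levels were 0, 0.0954 and 0.192 CPM (lowest, median and highest) in IVP discs and 0.228, 0.487 and 1.23 CPM in IVV discs. The IVP discs held at most 12 counts each and the IVV discs at least 13. In the fit its log2 fold change was -2.93 (SE 0.55, edgeR quasi-likelihood test, adjusted p = 0.00200). It was the single one of the 10 genes whose disc groups did not overlap, as was the case for 0.858% of all genes tested.

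SFRP4, a secreted Frizzled-related protein that binds Wnt ligands, was close to absent in IVP discs. A single count, in the disc of IVPF13, was all that the 7 IVP libraries held, whereas the IVV discs held 0 to 107 counts, with a median of 17 counts or 0.282 CPM and a highest level of 1.63 CPM. Embryo VE3 was the one IVV disc at 0. Pooled over libraries and scaled for depth, the IVV discs had 192 times the level of the IVP discs, with an exact 95% counting interval from 34.2 to 7628, and the difference passed the threshold (edgeR quasi-likelihood test, adjusted p = 0.000192). Such intervals cover counting error only and take each count as independent, so they are too narrow if both mates of a read pair were counted.

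SFRP1, of the same family, ranged from 4.15 to 19.3 CPM in IVP discs (median 9.87) and from 8.35 to 80.4 CPM in IVV discs (median 20.4). The groups overlapped widely, with 2 of 7 IVP discs below all IVV discs, and embryo VE5 stood at the top of the IVV discs. A log2 fold change of -1.36 (SE 0.41) was just past the threshold (edgeR quasi-likelihood test, adjusted p = 0.0448). It was not past the threshold when IVP10, IVP11, IVPF10, IVPF13, IVPF14, IVPF15, VE26, VE28, VE29 or VE5 was left out, and over all embryos left out in turn the adjusted p ran from 0.0133 to 0.159. With 2 surrogate variables it was 0.0976, with limma voom 0.132 and with a term for the last letter of the titles 0.0923.

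DKK1 and FRZB did not pass. DKK1, which blocks the LRP coreceptors, had a median of 1.66 CPM (0.521 to 2.65) in IVP discs and 3.29 CPM (1.16 to 6.25) in IVV discs, with a log2 fold change of -1.05 (SE 0.41, edgeR quasi-likelihood test, adjusted p = 0.143). FRZB, another Frizzled-related protein, had a median of 0.925 CPM (0.362 to 1.49) in IVP and 1.24 CPM (0.383 to 3.69) in IVV discs, with a log2 fold change of -1.0 (SE 0.35, edgeR quasi-likelihood test, adjusted p = 0.0936). With DESeq2, FRZB passed at an adjusted p of 0.0441.

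RSPO3 went the other way. It encodes an R-spondin, a secreted protein that keeps Wnt receptors at the cell surface by way of LGR receptors and the ubiquitin ligases RNF43 and ZNRF3. The IVP discs ranged from 5.57 to 31.7 CPM with a median of 17.7, and the IVV discs from 4.55 to 17.1 CPM with a median of 6.07. In 4 of 7 IVP discs it was above every IVV disc, while IVP10 was low among the IVP discs and VE6 high among the IVV discs. The log2 fold change was 1.07 (SE 0.30, edgeR quasi-likelihood test, adjusted p = 0.0341). The call was lost without IVP11, IVP14, IVPF10, IVPF13, VE19, VE24, VE28, VE29, VE3 or VE5, with adjusted p from 0.00474 to 0.0969 over all embryos left out in turn.

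**Figure D2:**
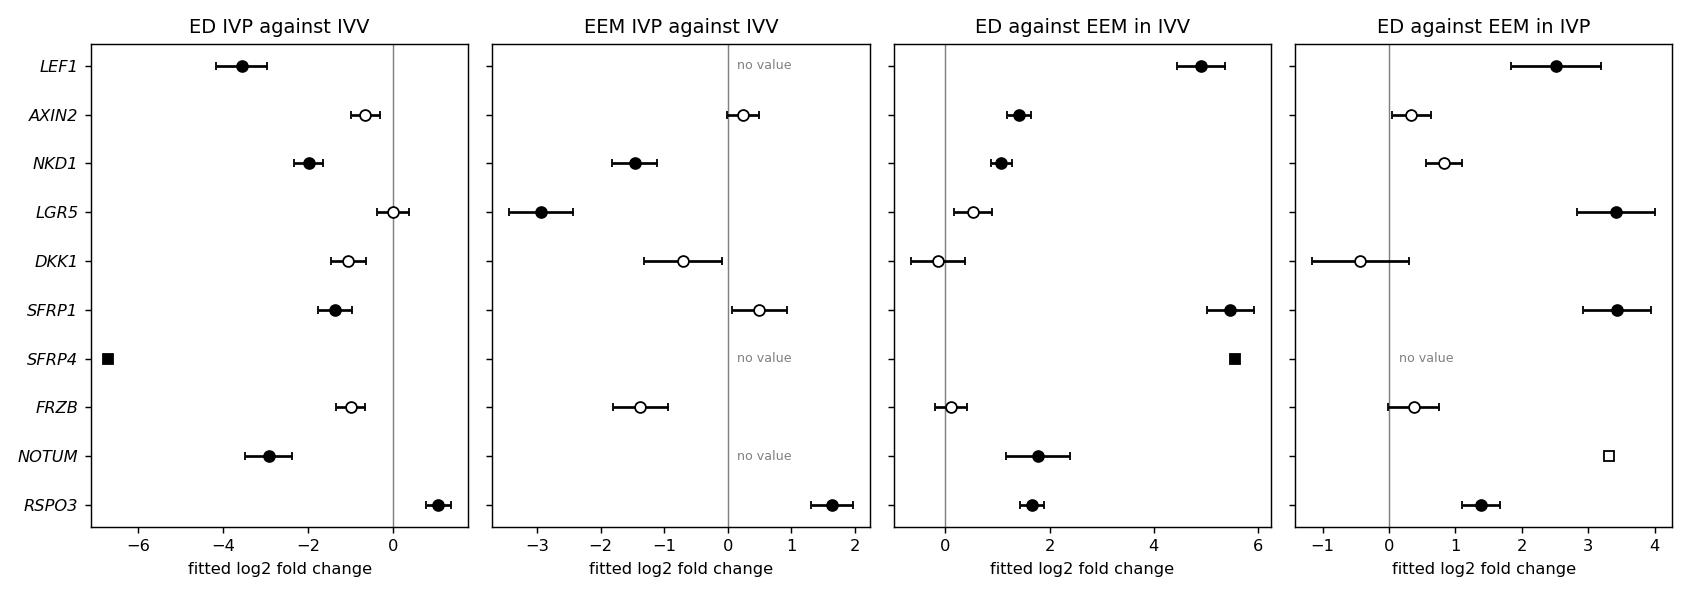
Fitted log2 fold change (x axis) of each gene in 4 comparisons, with bars for 1 SE; filled symbols passed the threshold in edgeR's quasi-likelihood test, squares mark a group with at most 3 counts in every library and have no bar, and genes that were not tested or were that low in both groups have no value. In the discs most of the genes lie below 0 for IVP against IVV and RSPO3 lies above it, and LEF1 and SFRP1 lie far above 0 for ED against EEM in both procedures.

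Markers of the disc moved with the procedure. POU5F1 was lower in IVP discs, with 29.2 ± 9.00 CPM (SD, n = 7) beside 95 ± 63.2 CPM in IVV discs (SD, n = 9) and a log2 fold change of -1.72 (edgeR quasi-likelihood test, adjusted p = 0.00479). Of the epiblast list, 1 of 5 genes tested was lower, POU5F1 itself. All 5 genes of the streak and early mesoderm list (TBXT, EOMES, MIXL1, MESP1 and TBX6) were lower, and their summed level was 6.85 to 16 CPM in IVP and 11.4 to 118 CPM in IVV discs. The 12 trophoblast markers all had a log2 fold change above 0, with a median of 0.34 and a smallest adjusted p of 0.296 in edgeR's quasi-likelihood test. The hypoblast list had 1 of 8 genes tested lower in IVP discs and a median log2 fold change of -0.0081. The part of these cell types in the results for the 10 genes was not tested.

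As a description, chosen after the data had been seen and given without a test, the genes were also set against POU5F1 in the same disc. POU5F1 had a mean log2 CPM of 4.81 in IVP and 6.29 in IVV discs, so that dividing by it raises the difference of every gene by the same amount, and the ratios rest on 1 marker of the epiblast. The mean log2 ratio of LEF1 to POU5F1 was -6.25 ± 1.57 (SD, n = 7) in IVP and -4.26 ± 0.98 (SD, n = 9) in IVV discs, a difference of -1.99. The differences of the other ratios (IVP minus IVV) were -0.80 for NOTUM, -0.33 for NKD1, 0.44 for SFRP1, 0.47 for DKK1, 0.79 for FRZB, 0.88 for AXIN2, 1.41 for LGR5 and 2.55 for RSPO3. SFRP4, at the floor in IVP discs, is given no ratio.

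In the EEM the same question gave a shorter list. LEF1, SFRP4 and NOTUM held too few counts to be tested, and of the other 7 genes 2 were lower and 1 was higher in IVP membranes, where 3.81% of 14718 genes tested passed (1.52% as lower and 2.29% as higher). The median log2 fold change of the 7 was -0.71, beside 0.0038 over all genes tested. NKD1 and LGR5 were lower and RSPO3 was higher.

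LGR5 had levels of 0, 0.0600 and 0.0874 CPM (lowest, median and highest) in IVP membranes and 0.177, 0.486 and 0.746 CPM in IVV membranes. At most 5 counts per library were found in IVP membranes, and at least 11 in IVV membranes, without overlap. The log2 fold change was -2.94 (SE 0.50, edgeR quasi-likelihood test, adjusted p = 0.000676). RSPO3 did not overlap either, with 3.14, 4.85 and 12.1 CPM in IVP and 1.42, 2.07 and 2.99 CPM in IVV membranes, and a log2 fold change of 1.64 (SE 0.33, edgeR quasi-likelihood test, adjusted p = 0.00342). Groups that do not overlap were found for 0.897% of the genes tested in the EEM.

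NKD1 was lower in IVP membranes too, with 0.561 to 1.85 CPM (median 0.711) against 1.72 to 5.46 CPM (median 2.88). In 4 of 6 IVP membranes it was below every IVV membrane, and IVPF13 and IVP10 reached into the IVV range. The log2 fold change was -1.47 (SE 0.35, edgeR quasi-likelihood test, adjusted p = 0.0145). NKD1 and RSPO3 thus passed with the same sign in both tissues, in libraries that came partly from the same embryos.

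FRZB, with a median of 0.452 CPM (0.315 to 0.761) in IVP and 0.910 CPM (0.544 to 3.61) in IVV membranes, had a log2 fold change of -1.38 (SE 0.43, edgeR quasi-likelihood test, adjusted p = 0.0758). It passed with 2 surrogate variables, with no filter on low counts and with DESeq2, at adjusted p of 0.0384, 0.0458 and 0.0214, and without IVPF14 or VE19, the adjusted p over all embryos left out in turn running from 0.00638 to 0.182. DKK1 varied widely within both groups, from 0 to 6.87 CPM in IVP and from 1.24 to 10.8 CPM in IVV membranes, with a log2 fold change of -0.71 (SE 0.62, edgeR quasi-likelihood test, adjusted p = 0.781). AXIN2 and SFRP1 had log2 fold changes of 0.24 (SE 0.26) and 0.50 (SE 0.43).

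The genes that were not tested were scarce in the EEM. NOTUM had 1 count over the 6 IVP membranes, in IVPF13, and 0 to 22 counts in the IVV membranes, with VE24 and VE29 at 0. Pooled and scaled for depth, the IVV membranes had 56.0 times the level of the IVP membranes, with an exact 95% counting interval from 9.74 to 2240. LEF1 was at 0 to 5 counts in IVP and 3 to 13 counts in IVV membranes, and SFRP4 was at 0 in every IVP membrane and in 7 of 8 IVV membranes, with 2 counts in VE26. The 12 trophoblast markers had a median log2 fold change of 0.26 and a smallest adjusted p of 0.145 between IVP and IVV membranes, and 1 of 8 hypoblast markers tested (TTR) was lower in IVP membranes, in edgeR's quasi-likelihood test.

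The ED and the EEM were compared within embryos, over the 8 IVV and 5 IVP embryos that gave both tissues, with embryo as a block. The libraries are shared with the comparisons of IVP and IVV above, so the results are not independent of them. In IVV embryos 7 of the 10 genes were higher in the ED in edgeR's quasi-likelihood test, where 22.1% of 16784 genes tested passed and 15.6% passed as higher in the ED. In IVP embryos 4 of the 10 were higher, where 4.83% passed and 4.18% passed as higher.

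**Figure D3:**
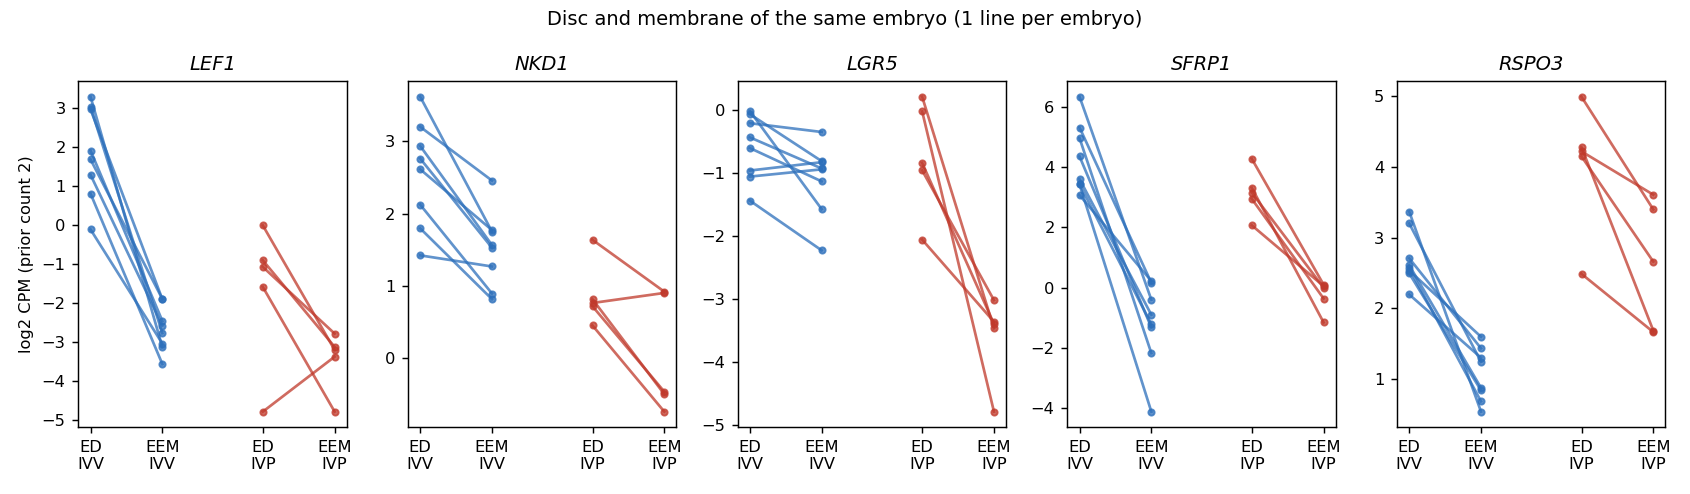
Log2 CPM (y axis, prior count 2) in the ED and the EEM of each embryo (joined by a line) for 5 of the genes, IVV in blue and IVP in red. LEF1, SFRP1 and RSPO3 fall from ED to EEM in all 8 IVV embryos, and LGR5 falls in all 5 IVP embryos and in 6 of 8 IVV embryos.

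SFRP1 and LEF1 were higher in the ED in both procedures. SFRP1 averaged 26.6 CPM in the ED and 0.549 CPM in the EEM of the 8 IVV embryos, was higher in the ED of all 8 without overlap, and had a log2 fold change of 5.47 (SE 0.45, edgeR quasi-likelihood test, adjusted p = 3.73e-08). In the 5 IVP embryos it averaged 9.95 and 0.83 CPM, again without overlap, with a log2 fold change of 3.44 (SE 0.51, edgeR quasi-likelihood test, adjusted p = 0.000307). LEF1 averaged 4.68 and 0.133 CPM in ED and EEM in vivo (log2 fold change 4.90, SE 0.47, edgeR quasi-likelihood test, adjusted p = 2.17e-07). In IVP embryos LEF1 averaged 0.438 and 0.0640 CPM, was higher in the ED of 4 of 5 embryos (not of IVPF14, whose disc held no count), and had a log2 fold change of 2.52 (SE 0.67, edgeR quasi-likelihood test, adjusted p = 0.0332). That last call was lost without IVP10, IVP11, IVP14 or IVPF13, with adjusted p from 0.00491 to 0.203 over all embryos left out in turn, and with limma voom at 0.0622. In both comparisons of tissues, groups without overlap were found for 5.65% (IVV) and 3.69% (IVP) of the genes tested.

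RSPO3 was higher in the ED of every embryo of both procedures. It averaged 6.73 CPM in the ED and 2.12 CPM in the EEM of IVV embryos (log2 fold change 1.66, SE 0.23, edgeR quasi-likelihood test, adjusted p = 1.76e-05). The IVP embryos averaged 18.6 and 7.05 CPM (log2 fold change 1.38, SE 0.28, edgeR quasi-likelihood test, adjusted p = 0.00513). RSPO3 was thus the gene of the 10 that passed in all 4 comparisons, higher in IVP than in IVV and higher in ED than in EEM.

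AXIN2, NKD1, SFRP4 and NOTUM were higher in the ED of IVV embryos but did not pass in IVP embryos, of which fewer gave both tissues. The difference between the procedures, tested below, passed for none of these genes, so the calls alone do not show that the excess of the ED was lost. In IVV embryos AXIN2 had a log2 fold change of 1.41 (SE 0.23, adjusted p = 0.000132) and NKD1 of 1.07 (SE 0.20, adjusted p = 0.000564) in edgeR's quasi-likelihood test, each higher in the ED of 8 of 8 embryos. NOTUM, at 0.574 against 0.184 CPM, was also higher in 8 of 8, with a log2 fold change of 1.78 (SE 0.62, edgeR quasi-likelihood test, adjusted p = 0.0460), but not past the threshold without IVP10, IVP11, IVP14, IVPF13, VE24, VE26, VE28, VE29, VE4 or VE5 (adjusted p from 0.0343 to 0.130 over all embryos left out in turn). SFRP4 had 165 counts over the 8 IVV discs and 2 over their membranes, a pooled ratio of 71.1 with an exact 95% counting interval from 19.4 to 592. SFRP4 passed in edgeR's quasi-likelihood test (adjusted p = 0.000203), while DESeq2 gave an adjusted p of 0.263.

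In IVP embryos the log2 fold change between ED and EEM was 0.33 (SE 0.29) for AXIN2 and 0.83 (SE 0.27, edgeR quasi-likelihood test, adjusted p = 0.0886) for NKD1, which passed with DESeq2 at 0.0273 and in edgeR without IVPF13 at 0.0319. NOTUM held 17 counts over the 5 IVP discs and 1 over their membranes, a pooled ratio of 16.1 with an exact 95% counting interval from 2.52 to 672 (edgeR quasi-likelihood test, adjusted p = 0.210). It passed without the replicate block in all 30 libraries, at an adjusted p of 0.0108. DKK1 and FRZB passed in neither procedure. DKK1 averaged 3.62 CPM in ED and 4.35 CPM in EEM of IVV embryos, and 1.81 and 3.01 CPM in IVP embryos, so it was the one antagonist not enriched in the disc by its means in either procedure. FRZB averaged 1.34 and 1.38 CPM in IVV and 0.747 and 0.553 CPM in IVP embryos.

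LGR5 was the gene for which the effect of procedure differed between the tissues. It averaged 0.658 CPM in the ED and 0.459 CPM in the EEM of IVV embryos, where it was higher in the ED of 6 of 8 embryos (log2 fold change 0.53, SE 0.37, edgeR quasi-likelihood test, adjusted p = 0.321). In IVP embryos it averaged 0.652 and 0.0523 CPM, was higher in the ED of 5 of 5 embryos without overlap, and had a log2 fold change of 3.42 (SE 0.59, edgeR quasi-likelihood test, adjusted p = 0.00120). The interaction of tissue and procedure was 2.89 on the log2 scale (SE 0.69, edgeR quasi-likelihood test, adjusted p = 0.0484), where 1.02% of 16784 genes tested passed and 0.107% passed with a sign above 0. That call was lost when IVP11, IVP14, IVPF13, IVPF14, VE24, VE26, VE28, VE29, VE3, VE4 or VE5 was left out, with log2 values from 2.43 to 3.30 and adjusted p from 0.0333 to 0.127 over all embryos left out in turn.

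For the other 9 genes the interaction was not past the threshold in edgeR's quasi-likelihood test, and SFRP4, with at most 1 count in any IVP library, is given no value. The log2 values were -2.39 (SE 0.88, adjusted p = 0.269) for LEF1, -2.03 (SE 0.64, adjusted p = 0.164) for SFRP1 and -1.08 (SE 0.37, adjusted p = 0.224) for AXIN2. The signs for LEF1, SFRP1 and AXIN2 are those of a smaller excess of the ED in IVP than in IVV embryos, but the tests do not show such a difference. NKD1, RSPO3 and DKK1 were at -0.24 (SE 0.34), -0.28 (SE 0.36) and -0.29 (SE 0.89). FRZB was at 0.26 (SE 0.49). NOTUM, with 1 count over the IVP membranes, had the opposite sign at 1.54 (SE 1.39). SFRP1 passed without VE4, at an adjusted p of 0.0315, and with no filter on low counts, at 0.0341.

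The other genes of the pathway were taken from a list of 95, of which 94 were found by symbol. In the ED 14 of the 81 tested were lower in IVP than in IVV embryos and 2 were higher, with a median log2 fold change of -0.21, where 4.95% and 1.4% of all genes tested were lower and higher. The lower genes were 5 of 14 ligands, 1 of 3 other agonists, 2 of 16 receptors, 1 of 10 other secreted antagonists and 5 of 9 genes known as targets in edgeR's quasi-likelihood test. The 15 transducers and transcription factors had a median log2 fold change of -0.14 and the 14 membrane and intracellular inhibitors one of -0.014. SHISA2, which holds Frizzled receptors inside the cell, was the 1 inhibitor that was higher.

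**Figure D4:**
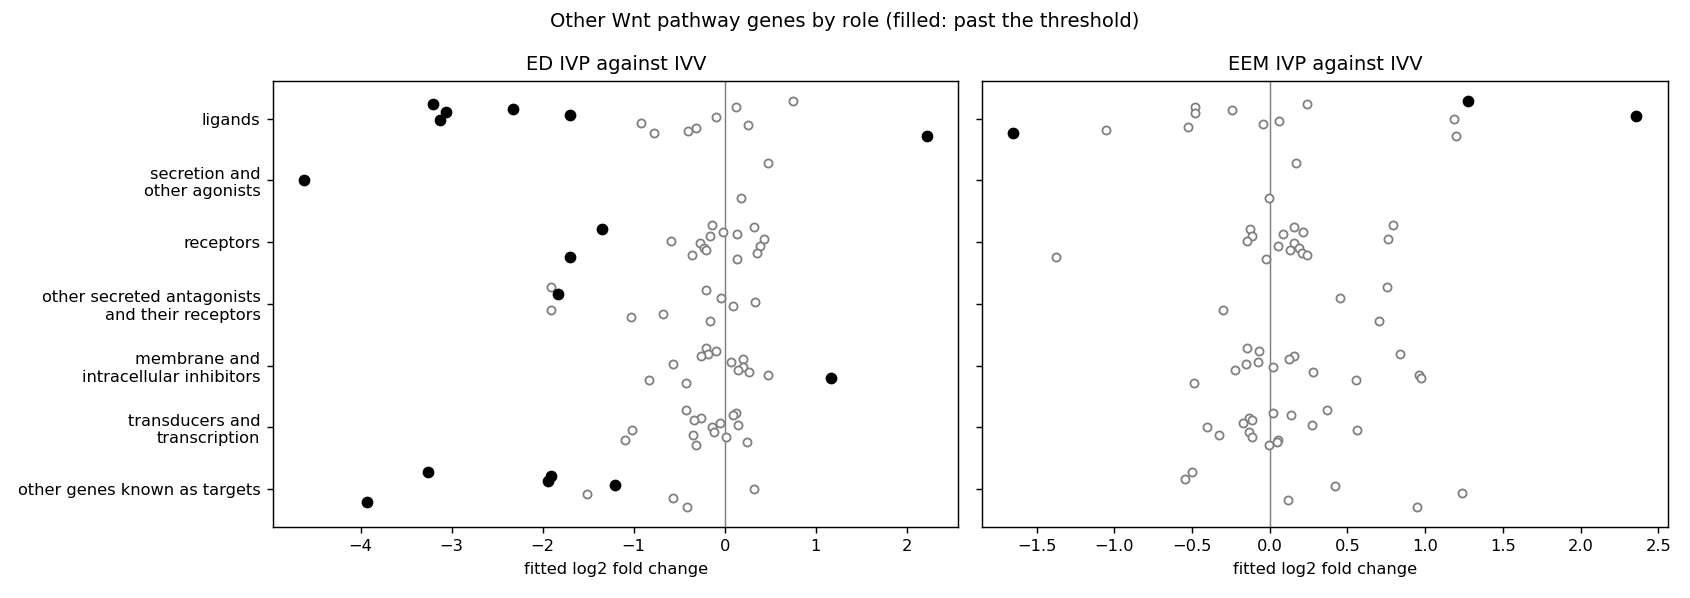
Fitted log2 fold change of IVP against IVV (x axis) for other Wnt pathway genes, grouped by role (y axis), in the ED and in the EEM; each dot is 1 gene and filled dots passed the threshold in edgeR's quasi-likelihood test. In the ED the filled dots lie mostly among ligands and targets below 0, and in the EEM 3 ligands are filled.

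The 5 with the smallest p in the ED were WNT5A, MSX1, WNT3, WNT9B and MSX2. WNT5A, a ligand best known for signaling without β-catenin, was at 0.776 ± 0.332 CPM in the IVP discs (SD, n = 7) and at 6.17 ± 3.60 CPM in the IVV discs (SD, n = 9), with a log2 fold change of -3.13 (SE 0.43, edgeR quasi-likelihood test, adjusted p = 6.78e-05). WNT3, the ligand needed for the streak in the mouse, averaged 0.404 ± 0.187 and 3.26 ± 2.28 CPM, with a log2 fold change of -3.06 (SE 0.47, edgeR quasi-likelihood test, adjusted p = 0.000257). MSX1 and MSX2, homeobox genes that also respond to BMP, had log2 fold changes of -1.94 and -1.20, and WNT9B one of 2.23 (SE 0.42, edgeR quasi-likelihood test, adjusted p = 0.00184).

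In the EEM 2 of 70 tested genes of the list were higher and 1 was lower in IVP embryos, all of them ligands, where 2.29% and 1.52% of all genes tested were higher and lower and 3.81% passed, so the count of the list is near the background. WNT4 averaged 5.46 CPM in IVP and 1.08 CPM in IVV membranes (log2 fold change 2.36, SE 0.37), WNT10A 3.79 and 1.67 CPM (1.28, SE 0.29) and WNT9A 0.0948 and 0.307 CPM (-1.65, SE 0.46), with adjusted p of 0.000301, 0.00998 and 0.0392 in edgeR's quasi-likelihood test. Between the tissues, 35 of 83 genes of the list were higher and 3 lower in the ED of IVV embryos, and 7 higher and 1 lower in the ED of IVP embryos. Of all genes tested, 15.6% in IVV and 4.18% in IVP embryos were higher, and 22.1% and 4.83% passed with either sign. Among those that passed, 29.6% and 13.5% were lower. The 5 with the smallest p in IVV embryos were WNT5A, the Wnt and Nodal antagonist CER1, MSX1, the Frizzled-related SFRP2 and the transcription factor TCF7, and in IVP embryos CER1, TBXT, the receptor ROR2, DKK3 and WNT11. The interaction passed for 5 of 83 (1.02% of all genes tested), all below 0: WNT5A at -4.18, WNT4 at -2.43, WNT3 at -2.69 and MSX1 at -1.89 on the log2 scale, and SFRP2, whose IVV membranes held at most 3 counts each and which is given no value.

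The discs of one procedure differed among themselves, and the 10 genes could be set against the streak list and the hypoblast list in the same disc, each list scored as the mean log2 CPM of its genes, centred within IVP and within IVV. Of 38 relations computed within the 9 IVV or the 7 IVP discs, 4 passed by Pearson's r after Benjamini-Hochberg adjustment over the 38, all in IVV discs. DKK1 rose with the streak score (r = 0.86, exact permutation p = 0.000942, adjusted p = 0.0179, Spearman's rho = 0.87, exact permutation p = 0.00451). NOTUM (r = 0.83, rho = 0.73) and SFRP1 (r = 0.84, rho = 0.70) did so too, with exact permutation p of 0.00270 and 0.00465 by Pearson's r (adjusted 0.0341 and 0.0442) and 0.0311 and 0.0433 by rho. RSPO3 rose with the hypoblast score (r = 0.95, exact permutation p = 0.000524, adjusted p = 0.0179, rho = 0.82, exact permutation p = 0.0108). That score weighs the 10 listed hypoblast genes alike, and 1 of them, AFP, was at 0 counts in every EEM library. Which of the listed genes carried the relation was not tested.

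By Spearman's rho none of the 38 passed after adjustment, and the adjusted p of these 4 relations ran from 0.171 to 0.274 in the exact permutation test. Without the 2 discs farthest from the median score, r was 0.83 for DKK1, 0.72 for NOTUM and 0.71 for SFRP1 with the streak score, and 0.89 for RSPO3 with the hypoblast score, and none of the 38 passed in the exact permutation test. The discs left out were VE4 and VE5 for the streak score and VE6 and VE29 for the hypoblast score. In the 7 IVP discs the same relations had r of 0.14, -0.38, 0.29 and 0.18, and whether they differed from those in IVV discs was not tested. SFRP1 had r = 0.84 and rho = 0.86 with the hypoblast score in IVP discs (exact permutation p = 0.0157 and 0.0238, adjusted 0.119 and 0.237), passed with a prior count of 0.5 (r = 0.88, adjusted p = 0.0422), and had r = 0.45 without IVP14 and IVPF15. The last letter of the titles, which the labels do not explain, is A for VE19 and VE3 alone among the IVV discs, too few for a value of their own.

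**Figure D5:**
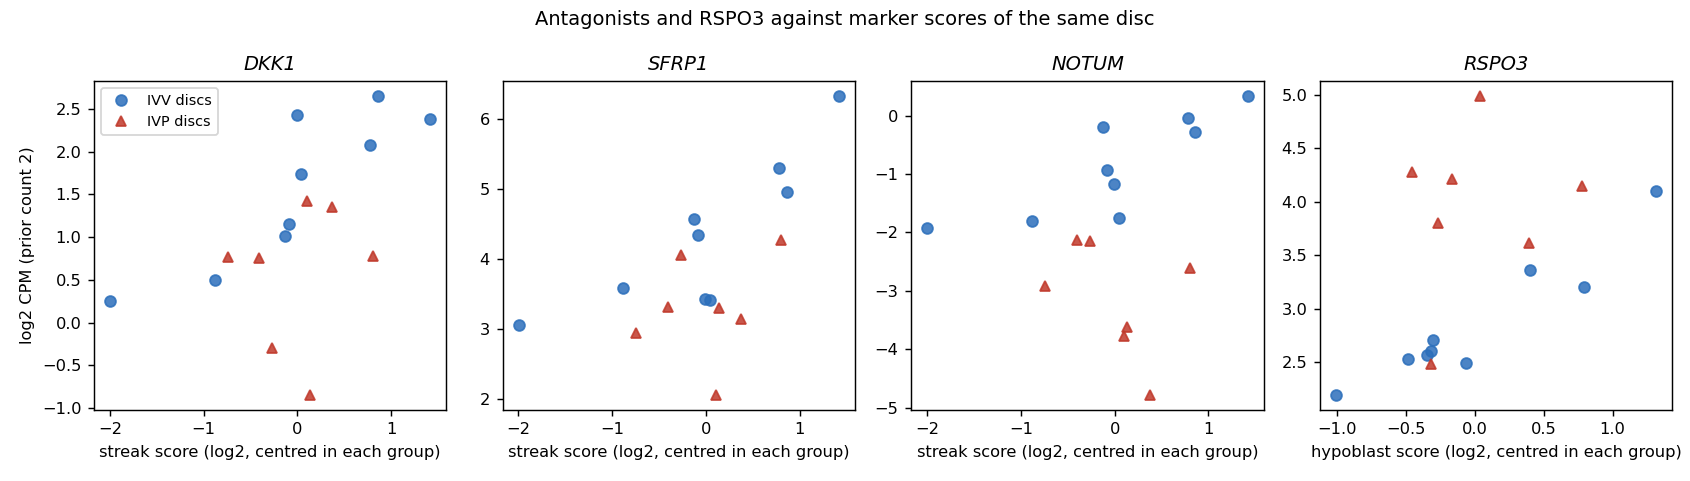
Log2 CPM (y axis, prior count 2) of DKK1, SFRP1 and NOTUM against the streak score and of RSPO3 against the hypoblast score of the same disc (x axis, mean log2 CPM centred within each procedure); circles are the 9 IVV discs and triangles the 7 IVP discs. The IVV discs rise from left to right in each panel, with r from 0.83 to 0.95, while the IVP discs show r between -0.38 and 0.29.

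Over the 16 discs, after centring within each procedure, the genes were also compared with each other as a description. Among the 45 pairs the median r was 0.24. LEF1 and NOTUM were the most alike pair (r = 0.84), followed by SFRP1 and NOTUM (0.76), AXIN2 and NOTUM (0.75), LEF1 and NKD1 (0.68) and LEF1 and SFRP1 (0.62), and DKK1 and RSPO3 were the least alike (-0.42). The discs share depth and tissue composition, so that such values have no test here. NOTUM thus varied with LEF1, AXIN2 and SFRP1 among discs of one procedure.

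The genes most like each of the 10 over the same 16 discs were taken by the highest Pearson r. AXIN2 was most like MSX1 (r = 0.90), DMRT2 (0.90) and SEMA6C (0.88), and LEF1 most like FJX1 (0.90), SEMA3B (0.90) and MSS51 (0.88). Among the genes most like NOTUM were SHISA6 (0.92) and NEURL1 (0.92). SFRP1 was most like DPYSL2 (0.97), PPP4R4 (0.97) and NPTXR (0.97), and LGR5 most like SERPINE2 (0.90), SUSD2 (0.90) and CLU (0.88). Among the genes most like RSPO3 were CLTRN (0.92) and A2M (0.85). NKD1 was most like RGL1, BMP2 and FMNL2 (0.84 to 0.85) and DKK1 most like RUNX3, PRICKLE1 and SASH3 (0.83 to 0.88). FRZB and SFRP4 had weaker likeness, led by ATP2B1 (0.84) and TEX33 (0.77).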

How the data were processed

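RNA of 30 pieces of embryo was sequenced from non-stranded, poly(A)-selected libraries. The authors removed poor reads (SOAPnuke), used STAR with the ARS-UCD1.3 assembly and assigned reads to genes by featureCounts, and the deposited values are these raw counts, without normalization or gene filter. Without strand, reads of overlapping genes cannot be told apart. Symbols were taken by Entrez ID from RefSeq (assembly ARS-UCD2.0), which named 31630 of 35092 genes; no coordinates were used.

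Groups came from the labels, and embryos from the sample titles, so ED and EEM of 1 embryo were paired. Counts were analysed with edgeR 4.0.16: TMM factors, filterByExpr with at least 10 counts, its quasi-likelihood test, Benjamini-Hochberg adjustment over all genes tested and a threshold of 0.05. IVP and IVV were compared in each tissue with 1 surrogate variable (sva 3.50.0), since the study controlled for morphology with sva and its number of surrogate variables was not given in the sources used here. ED and EEM were compared in 26 libraries of 13 embryos with embryo as a block. Log2 CPM used a prior count of 2. A gene was at the floor in a group with at most 3 counts in every library.

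The 10 genes, the Wnt and marker lists and the tests were chosen with earlier results of these data known. All 10 genes were named, with the 5 of smallest p per comparison from the Wnt list and the 3 most alike genes for each of the 10, not all of which are reported here. Alternatives were DESeq2 1.42.0, limma 3.58.1 (voom), RLE factors, other filters and numbers of surrogate variables, halved counts (among small counts 2 was more frequent than 1, as when mates are counted singly), the letter that ends the titles, models without the block, and each embryo left out. The scripts were tested on simulated data. Replicates are separate embryos, but in the study the IVP embryos grew in 2 recipient cows and the IVV embryos came from 2 donor cows. The labels do not tie embryos to cows, and every test takes the embryos as independent, so p-values may be too small.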

Additional observations from a re-analysis of the deposited data

Results flagged for a closer look

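In 36 groups of libraries the gap of the highest or lowest library to its neighbour was compared with the range of the group (Dixon's rule on log2 CPM). For values with a normal spread, chance alone marks about 1 group in 20, and counts near 0 need not have such a spread. Embryo IVPF14 was the lowest library, with 0 counts, for LEF1 among the IVP discs (gap over range 0.6256) and for LGR5 (0.7464) and DKK1 (0.6704) among the IVP membranes. The LGR5 counts of the IVP membranes ran only from 0 to 5, so that gap covers few counts. SFRP4 in the IVV discs was lowest in VE3, with 0 counts and a gap over range of 0.5212.

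For LGR5 the interaction of tissue and procedure was just past the threshold, at 2.89 on the log2 scale (SE 0.69, edgeR quasi-likelihood test, adjusted p = 0.0484). The IVP membranes in this fit held 13 counts of LGR5 in all. The call was lost in 11 of 13 fits with 1 embryo left out, the adjusted p over the 13 running from 0.0333 to 0.127 (edgeR quasi-likelihood test).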

How the results depend on the processing

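Of the 10 genes, 4 to 7 passed in the ED and 2 to 5 in the EEM under the settings tried. The 5 were reached with no filter on low counts, which let NOTUM in and with which FRZB passed too (edgeR quasi-likelihood test, adjusted p = 0.0458). Genes called in the ED for IVP against IVV numbered 1846 without the filter and 1512 with DESeq2, and 639 to 1160 with an embryo left out (639 without VE29); in the EEM they numbered 1211 without the filter and 426 to 729 with an embryo left out. With no surrogate variable 51.1% of the genes called in the EEM were lower, in place of 39.9%. Without the replicate block, 2268 genes passed for ED against EEM in IVV embryos (2349 with all 30 libraries), of which 5.25% were lower in place of 29.6%, NOTUM was at an adjusted p of 0.0756 and FRZB at -0.024; with an embryo left out 2626 to 4125 passed in IVV and 473 (without IVP14) to 851 in IVP embryos. For the interaction 301 genes passed without the block in all 30 libraries, 356 with no filter, 435 with DESeq2, 329 with voom and 101 to 211 with an embryo left out, the lower counts being those without IVP10, IVPF14, VE28 or VE29; of the 10 genes 2 passed with no filter and 0 to 1 with an embryo left out.

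Some signs turned. LGR5 in the ED was at 0.018 with RLE factors, 0.0052 with no filter, 0.022 with DESeq2, 0.061 with halved counts and -0.14 to 0.16 with an embryo left out. With an embryo left out, DKK1 ran from -0.37 to 0.068 between the tissues of IVV embryos, from -1.15 to 0.076 in IVP embryos and from -0.98 to 0.22 for the interaction, FRZB from -0.090 to 0.29 between the tissues of IVV embryos, and NKD1 from -0.37 to 0.013 for the interaction. The ratio to POU5F1 raises every gene by the fall of POU5F1 itself, so its signs are no test of stability; by it the differences were 0.88 for AXIN2, 1.41 for LGR5, 0.47 for DKK1, 0.44 for SFRP1 and 0.79 for FRZB. With a prior count of 0.5, 5 relations passed; without the 2 farthest discs 0 passed, and r with the hypoblast score turned to -0.17 (LEF1), -0.18 (NKD1), -0.36 (SFRP1) and -0.26 (NOTUM) in IVV discs and to -0.11 (LEF1), -0.23 (NKD1), -0.43 (FRZB) and -0.37 (NOTUM) in IVP discs, and r with the streak score in IVP discs to -0.021 (NKD1, or -0.067 with a prior count of 0.5), -0.14 (LGR5) and -0.44 (SFRP1). The cause was not tested. Genes with few counts, SFRP4 and NOTUM above all, carry the widest counting error.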
